A study of Mus musculus with 8 samples.

Results

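The genes described here are 9 genes of the pigment cell. They are the melanin enzyme genes Tyr, Tyrp1 and Dct, the melanosome protein genes Pmel and Mlana, the melanosome transporter genes Slc45a2 and Oca2, the transcription factor gene Mitf, and Gpnmb. They were chosen by name, with the diet contrast of these same arrays in view. The platform annotation gave 1 of these symbols alone to 16 probe sets of the 45037 used, and 0 probe sets named a member together with another gene. For each of the 18193 genes measured, the 9 included, the main probe set was the one with the highest mean over all 8 arrays. The members hold 5 genes with more than 1 probe set and 4 genes with 1 probe set.

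RNA was isolated from frozen, powdered skin of the back. The animals were female hairless mice of the Hos:HR-1 stock, 10 weeks old. The collagen group ate AIN-93G, a purified rodent diet, mixed at 100 g with 2.0 g of a hydrolysate of fish scale collagen, that is collagen broken into peptides, and the control group ate AIN-93G alone, each for 1 week. The series gives 4 arrays of the collagen group and 4 of the control group, called biological replicates in the labels, out of 8 mice per diet housed 4 to a cage. The sources used here do not tie the arrays to mice or cages. The values are the authors' log2 values per probe set, with array medians of 8.1927 to 8.1929 and single values of 6.56 to 14.46. All 9 skin markers of epidermis and dermis (Krt5, Krt14, Krt1, Krt10, Lor, Flg, Col1a1, Col1a2 and Col3a1) had mean levels of 11.19 to 14.39, where the median probe set had a mean of 8.193. Precision is limited by the number of arrays, and means are given with n = 4 arrays per diet.

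Melanin is made in melanosomes, lysosome-related organelles of melanocytes. Tyrosinase (Tyr) starts the synthesis from tyrosine, and the related enzymes Dct (dopachrome tautomerase) and Tyrp1 act further along the path to black-brown eumelanin. Pmel forms the fibrils on which melanin is laid down, Mlana is a small membrane protein that works with Pmel, and the membrane transporters Slc45a2 and Oca2 help to set the conditions inside the organelle. Mitf is the transcription factor that drives these genes in melanocytes, and it also acts in mast cells and osteoclasts. Gpnmb is a membrane glycoprotein related to Pmel that is made by melanocytes and by macrophages and osteoclasts. In the back skin of haired mice most melanocytes sit in the hair follicles, and the sources used here do not locate them in these hairless mice. The arrays measure RNA, and whether this skin makes melanin was not measured.

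The promoters of the 3 melanin enzyme genes and of Gpnmb are shown because the results turn on the covariation of Tyrp1, Dct and Tyr with the other members over the arrays and on the diet values of Gpnmb, described below. Of the 9 members 6 had promoter sequence in the RefSeq table (build GRCm38.p6, 250 bases before to 50 after the annotated start). They are Tyrp1, Tyr, Dct, Oca2, Gpnmb and Mitf, the last with 3 promoters. Capitals mark CATGTG or its extension TCATGTGCT, read on either strand (CACATG is CATGTG on the other strand). CATGTG is a form of the E-box that Mitf binds, and the extended form is known as the M-box.
Tyrp1 promoter, chr4:80833963-80834262, + strand: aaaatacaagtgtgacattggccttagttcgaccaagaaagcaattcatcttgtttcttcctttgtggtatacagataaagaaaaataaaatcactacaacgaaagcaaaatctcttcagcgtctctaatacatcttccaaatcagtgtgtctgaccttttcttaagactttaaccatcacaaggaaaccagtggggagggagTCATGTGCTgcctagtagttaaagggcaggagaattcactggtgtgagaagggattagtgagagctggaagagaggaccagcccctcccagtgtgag
Dct promoter, chr14:118052197-118052496, - strand: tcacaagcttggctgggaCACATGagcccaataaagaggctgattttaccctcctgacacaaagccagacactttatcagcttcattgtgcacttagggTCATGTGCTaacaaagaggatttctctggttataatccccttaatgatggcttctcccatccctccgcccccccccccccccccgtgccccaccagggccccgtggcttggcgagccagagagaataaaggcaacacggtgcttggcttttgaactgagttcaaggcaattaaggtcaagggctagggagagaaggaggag
Tyr promoter, chr7:87493463-87493762, - strand: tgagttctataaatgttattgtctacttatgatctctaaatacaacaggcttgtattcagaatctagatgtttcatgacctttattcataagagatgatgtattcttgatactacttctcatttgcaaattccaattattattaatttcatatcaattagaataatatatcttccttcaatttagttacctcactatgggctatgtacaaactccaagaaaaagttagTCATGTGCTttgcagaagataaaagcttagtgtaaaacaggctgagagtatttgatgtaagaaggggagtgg
Gpnmb promoter, chr6:49036268-49036567, + strand: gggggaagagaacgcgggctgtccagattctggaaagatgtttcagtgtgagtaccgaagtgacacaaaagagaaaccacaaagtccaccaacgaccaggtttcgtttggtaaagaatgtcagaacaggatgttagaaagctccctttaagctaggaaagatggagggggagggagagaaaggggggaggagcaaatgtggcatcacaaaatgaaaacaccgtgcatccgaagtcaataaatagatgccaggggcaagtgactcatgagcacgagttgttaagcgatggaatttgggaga

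TCATGTGCT stood in the promoters of Tyrp1, Tyr and Dct, the first base 47, 22 and 151 bases before the annotated start. It stood in 3 of the 8 promoter sequences of the members and in 134 of all 32851 promoters (0.408%). CATGTG, which lies inside it, stood in 4 of the 8, those of Tyrp1, Tyr, Dct and Oca2, and in 14.2% of all promoters. CACGTG, the other E-box form searched, stood in 0 of the 8 and in 7.15% of all. The extended form was chosen with these sequences in view. A match describes the letters in this window only.

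Deposited values hardly varied between arrays. The range over the 8 arrays had a median of 7.36e-06 across probe sets. No source used here says how this scale arose, so no difference is turned into a fold change and the members are not ranked by level. Where a probe set is called bright or dim, or set against the median probe set, this describes its signal on the array and not the abundance of its RNA. On this scale several members were among the probe sets with the widest ranges. The range over the arrays was 0.00804 for Tyrp1, wider than in 99.3% of all probe sets, 0.00351 for Dct (98.7%), 0.00346 for Pmel (98.7%), 0.00096 for Mlana (96.8%), 0.000624 for Gpnmb (95.8%) and 0.00023 for Tyr (92.2%). Mitf had a range of 2.27e-05 (70.9%), Oca2 one of 1.45e-05 (63.8%) and Slc45a2 one of 1.04e-05 (57.2%). The main probe sets of Gpnmb, Tyrp1, Dct, Pmel and Mitf were no dimmer than the median probe set. Those of Tyr, Mlana, Slc45a2 and Oca2 lay below it, and without detection calls their signal over background is unknown.

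Among the melanin enzymes, Tyrp1 had 9.24164, 9.24420, 9.24359 and 9.24002 in collagen 1 to 4, against 9.23837, 9.24141, 9.23615 and 9.23916 in control 1 to 4. Collagen 2 and collagen 3 were highest and control 3 was lowest, and the diets overlapped because control 2 lay above collagen 4. The mean was 9.24236 ± 0.00190 in the collagen group and 9.23877 ± 0.00217 in the control group (SD, n = 4 each), a difference of 0.00359 ± 0.00138 (SE). This is 1.76 within-diet SD.

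Dct had 9.99396, 9.99436, 9.99455 and 9.99285 in collagen 1 to 4, against 9.99244, 9.99351, 9.99104 and 9.99249 in control 1 to 4. As for Tyrp1, collagen 2 and 3 were highest, control 3 was lowest, and control 2 lay above collagen 4. The difference was 0.00156 ± 0.000608 (SE), or 1.74 within-diet SD. Tyr had 7.709007, 7.709236, 7.709231 and 7.709076 in collagen 1 to 4, against 7.709034, 7.709175, 7.709030 and 7.709068 in control 1 to 4. Its highest arrays were again collagen 2 and 3, but its lowest was collagen 1, so the collagen group held both ends of the range. The difference was 6.06e-05 ± 6.40e-05 (SE), less than its SE.

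Of the melanosome proteins, Pmel had 8.74809, 8.74978, 8.74992 and 8.74841 in collagen 1 to 4, against 8.74784, 8.74891, 8.74647 and 8.74764 in control 1 to 4. Collagen 2 and 3 were highest and control 3 lowest, and control 2 lay above collagen 1 and collagen 4. The difference was 0.00134 ± 0.000657 (SE), or 1.38 within-diet SD. Mlana had 7.91210, 7.91306, 7.91298 and 7.91249 in collagen 1 to 4, against 7.91262, 7.91275, 7.91249 and 7.91247 in control 1 to 4. The collagen group spanned the whole range, from collagen 1 at the bottom to collagen 2 at the top, with an SD of 0.000448 against 0.000133 in the control group. The difference of 7.40e-05 ± 0.000224 (SE) was less than its SE.

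Of the transporters, Oca2 had 7.511599, 7.511612, 7.511607 and 7.511602 in collagen 1 to 4, against 7.511602, 7.511610, 7.511597 and 7.511601 in control 1 to 4. Collagen 2 and control 2 were its highest arrays, and the difference was 2.58e-06 ± 3.67e-06 (SE). Slc45a2 had 8.0617412, 8.0617469, 8.0617423 and 8.0617436 in collagen 1 to 4, against 8.0617391, 8.0617400, 8.0617365 and 8.0617412 in control 1 to 4. All 4 collagen arrays lay above all 4 control arrays, but the gap between collagen 1 and control 4 was 5.40e-08. The difference was 4.31e-06 ± 1.53e-06 (SE), or 1.92 within-diet SD.

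Mitf had 10.883726, 10.883703, 10.883717 and 10.883717 in collagen 1 to 4, against 10.883718, 10.883711, 10.883716 and 10.883710 in control 1 to 4. Its highest array was collagen 1 and its lowest collagen 2, and the diets overlapped throughout. The difference was 2.13e-06 ± 4.88e-06 (SE), less than its SE.

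Gpnmb was the member that lay lower with collagen. It had 11.67654, 11.67671, 11.67670 and 11.67670 in collagen 1 to 4, against 11.67706, 11.67705, 11.67716 and 11.67717 in control 1 to 4. All 4 collagen arrays lay below all 4 control arrays, with a gap of 0.000343. The mean was 11.67666 ± 7.97e-05 in the collagen group and 11.67711 ± 6.23e-05 in the control group (SD, n = 4 each), a difference of -0.000446 ± 4.85e-05 (SE), or -6.24 within-diet SD. The members were chosen with this contrast in view, so it is described without a test. The difference lay between -0.000466 and -0.000407 with each array left out in turn. It was -0.000129 after quantile normalization, which gives arrays the same set of values. Gpnmb then took only 2 values, 11.677132 in control 3 and control 4 and 11.676874 in each of the other 6 arrays, so that the diets overlapped. The arrays come from whole skin, so fewer cells of a type and less RNA per cell cannot be told apart.

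**Figure D1:**
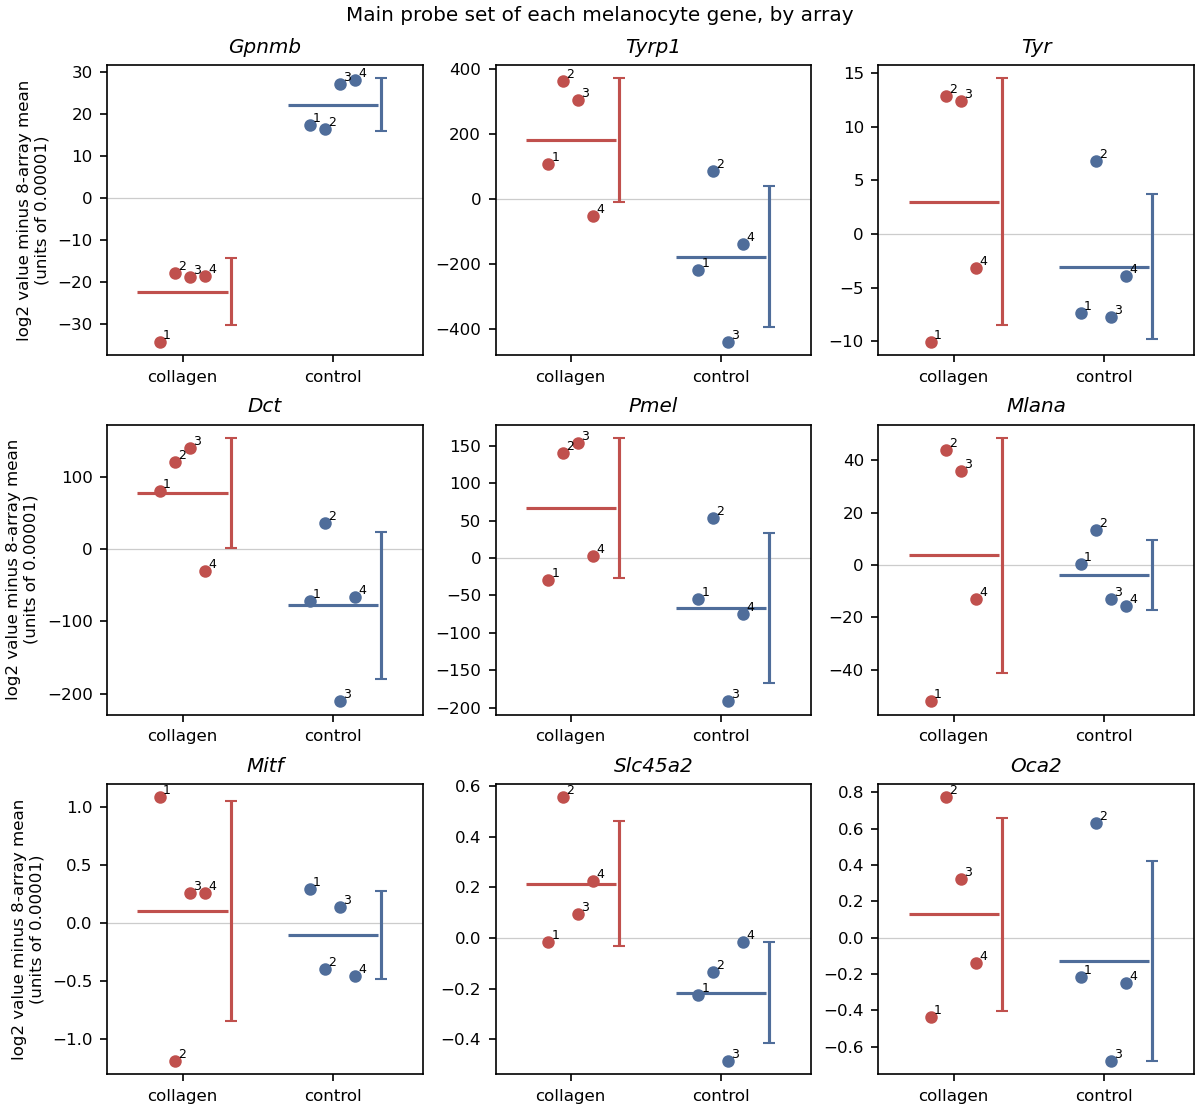
Each panel plots the main probe set of 1 gene in the 4 collagen arrays (left, red) and the 4 control arrays (right, blue), as the deposited log2 value minus its mean over the 8 arrays in units of 0.00001; digits are replicate numbers, lines are means, bars are SD, and the panels differ in scale. Gpnmb is the gene whose collagen arrays all lie below its control arrays by a wide gap, while Tyrp1, Dct and Pmel have collagen 2 and 3 on top and control 3 at the bottom.

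Over the 9 members, 8 had a higher mean in the collagen group, Gpnmb being the exception, against 52.9% of all 18193 genes. The median standardised difference, in within-diet SD, was 0.643 over the 9 members and 1.01 over the 8 without Gpnmb, against 0.0517 over all genes. Of their 16 probe sets 13 lay higher, against 53.3% of all probe sets. These values describe the members and are no test, since the contrast was used in choosing them and the members share their arrays and vary together. The diets did not overlap in 2 of 9 members, Gpnmb and Slc45a2, against 2.02% of all genes (0.671% with collagen below and 1.35% with collagen above). Over the alternative settings Gpnmb kept its lower mean, and the signs of Tyrp1, Dct, Pmel and Oca2 held as well. Mitf lay lower without collagen 1, Mlana lower without collagen 2 and without collagen 3, Slc45a2 lower after quantile normalization, and Tyr lower by its next brightest probe set. Median centring of each array kept the signs but moved Mitf from 2.13e-06 to 5.73e-05, Oca2 from 2.58e-06 to 5.78e-05 and Slc45a2 from 4.31e-06 to 5.95e-05. The Tyr difference moved from 6.06e-05 to 0.000116. As deposited, the differences of Mitf, Oca2 and Slc45a2 were thus smaller than the shift that centring made. Over the whole table, 0 of 45037 probe sets (0%) passed an adjusted p of 0.05 by limma's moderated test (smallest adjusted p 0.586). At an unadjusted p under 0.05 there were 1601 probe sets (3.55%), and after quantile normalization 2 probe sets passed the adjusted threshold.

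Probe sets of the same gene were then set against each other, as a check on each gene's pattern over the arrays. In 9 pairs from 5 genes, 4 pairs passed an adjusted p of 0.05 by exact permutation over the pairings of 8 arrays (two-sided, adjusted over the 9 pairs). The 3 pairs among the 3 Tyrp1 probe sets had r of 0.985 to 0.996 and rho of 0.976 to 1, each with an adjusted exact permutation p of 0.000149 for r. They kept r of 0.973 to 0.993 without the 2 arrays farthest from the median, and 0.981 to 0.996 with the diet means removed. Their differences between the diets were 0.00359, 0.00221 and 0.000945 from the brightest to the dimmest. The brightest and the dimmest of the 3 Tyr probe sets had r = 0.866 (adjusted exact permutation p = 0.0212) and rho = 0.714 (adjusted exact permutation p = 0.130). Without collagen 2 and 3 that r was 0.640 (exact permutation p = 0.185), so the call depended on those arrays, while r over the 4 control arrays alone was 0.796. The remaining Tyr probe set spanned 9.94e-07 between its lowest and highest array, with r of 0.179 and 0.0267 with the others.

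The probe sets of Mitf (r = 0.574, rho = 0.476, adjusted exact permutation p of 0.245 and 0.344) did not pass. For Gpnmb and Slc45a2 no pooled r is given, because a main probe set that separates the diets can correlate through diet alone. With the diet means removed, r was 0.069 for the Gpnmb pair and 0.354 for the Slc45a2 pair. The dim Gpnmb probe set, with a mean level of 7.6043, differed by -2.31e-06 ± 1.39e-06 (SE), or -1.14 within-diet SD. Its diets overlapped, since collagen 4 and collagen 3 lay above control 4. The separation of the diets in Gpnmb thus stood in 1 of its 2 probe sets, the brighter one.

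**Figure D2:**
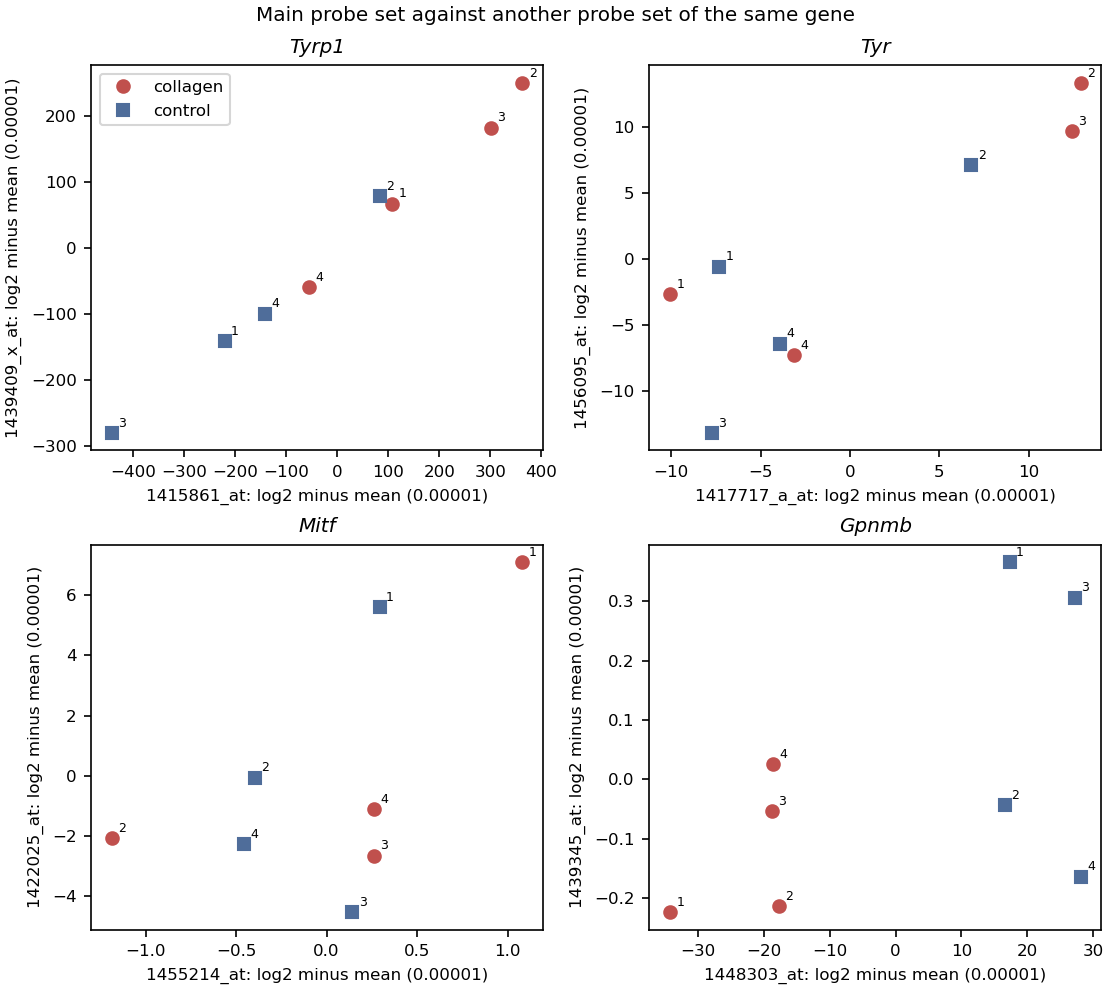
Each panel sets the main probe set of a gene (x axis) against another probe set of the same gene (y axis) in the 4 collagen arrays (red circles) and the 4 control arrays (blue squares), as log2 value minus its 8-array mean in units of 0.00001, with replicate numbers beside the points. The Tyrp1 points lie close to a line (r = 0.996), whereas for Gpnmb the diets part along the x axis and overlap along the y axis.

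Several melanin enzyme and melanosome genes moved together from array to array. Of the 36 pairs of members, 7 passed an adjusted p of 0.05 for Pearson's r by exact permutation over 8 arrays (two-sided, adjusted over 36 pairs), all 7 with a positive r. All 7 lay among the 21 pairs in which neither gene separates the diets. Diet was not removed in this test. Tyrp1, Dct and Pmel lay higher with collagen by 1.76, 1.74 and 1.38 within-diet SD, and such a shared shift can add to r and lower its p. With the diet means removed the 7 pairs had r of 0.872 to 0.962, as a description. Tyrp1 and Dct had r = 0.981 (adjusted exact permutation p = 0.00357) and rho = 0.976 (adjusted exact permutation p = 0.0143). Tyrp1 and Pmel had r = 0.950 (adjusted exact permutation p = 0.00982) and rho = 0.881 (adjusted exact permutation p = 0.0435). Dct and Pmel had r = 0.923 (adjusted exact permutation p = 0.0129) and rho = 0.905 (adjusted exact permutation p = 0.0435). These 3 genes thus kept nearly the same order of arrays.

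Other pairs that passed joined Tyr to Mlana, Oca2 and Pmel, and Pmel to Oca2. Tyr and Mlana had r = 0.907 (adjusted exact permutation p = 0.00982) and rho = 0.881 (adjusted exact permutation p = 0.0435). Tyr and Oca2 had r = 0.915 (adjusted exact permutation p = 0.0219) and rho = 0.929 (adjusted exact permutation p = 0.0402). Tyr and Pmel had r = 0.873 (adjusted exact permutation p = 0.0219) and Pmel and Oca2 had r = 0.873 (adjusted exact permutation p = 0.0223), while their rho of 0.810 and 0.857 did not pass (adjusted exact permutation p of 0.0871 and 0.0551). By rho 6 pairs passed, and 5 passed by both measures. The sixth by rho was Mlana and Oca2 (rho = 0.881, adjusted exact permutation p = 0.0435), with r = 0.812 (adjusted exact permutation p = 0.0631). All 15 pairs among Tyrp1, Dct, Pmel, Tyr, Mlana and Oca2 had a positive r, the lowest being 0.422 for Dct and Mlana.

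Leaving out the 2 arrays farthest from the median of the first gene gave 0.981 for Tyrp1 and Dct (exact permutation p = 0.00139), 0.870 for Tyrp1 and Pmel (0.0236), 0.931 for Tyr and Oca2 (0.0208) and 0.901 for Pmel and Oca2 (0.0153), these p unadjusted. The other 3 relations no longer passed, with r = 0.781 for Dct and Pmel (exact permutation p = 0.0694), 0.727 for Tyr and Mlana (0.135) and 0.630 for Tyr and Pmel (0.203). The calls for Tyr with Mlana and with Pmel were thus lost without collagen 2 and 3. That for Dct and Pmel was lost without collagen 3 and control 3. In all of these r stayed positive, and fewer arrays also allow fewer permutations. Over the control arrays alone r was 0.753 for Tyr and Mlana, 0.841 for Tyr and Pmel and 0.992 for Dct and Pmel. With 1 array left out, Tyrp1 and Dct passed in all 8 cases, with r of 0.971 to 0.990. The count of pairs that passed was 1 without collagen 2, 2 without control 3 and 14 without collagen 1. In collagen 1, Tyr, Mlana and Oca2 lay at -1.08, -1.69 and -0.844 SD from their mean, while Tyrp1 and Dct lay at 0.400 and 0.686 SD.

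The common pattern was present within each diet. Within the collagen arrays r was 0.934 for Tyrp1 and Dct, 0.861 for Tyrp1 and Pmel and 0.991 for Tyr and Mlana. Within the control arrays it was 0.986, 0.973 and 0.753, each value resting on 4 arrays and given as a description. With the diet means removed, r over the 8 arrays was 0.962 for Tyrp1 and Dct, 0.922 for Tyrp1 and Pmel, 0.891 for Tyrp1 and Oca2, 0.806 for Tyrp1 and Tyr and 0.630 for Tyrp1 and Mlana. Slc45a2 had 0.432 to 0.698 with these 6 genes.

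**Figure D3:**
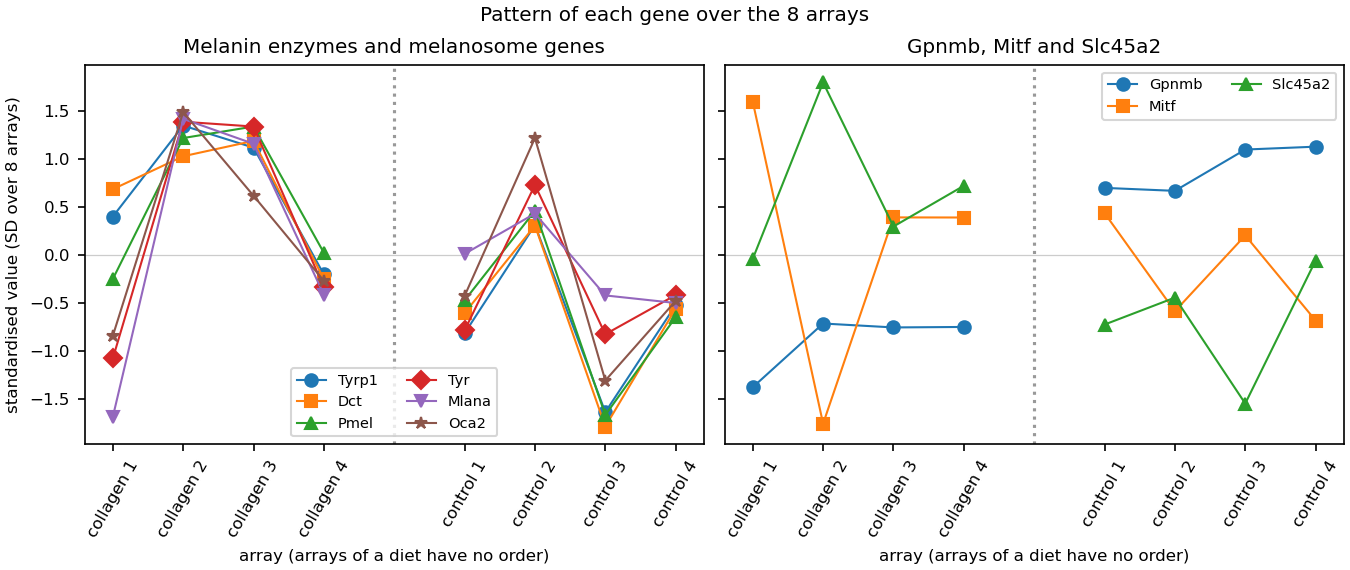
Each line joins the values of 1 gene's main probe set in the 4 collagen arrays and in the 4 control arrays, in SD from the gene's mean over the 8 arrays; arrays of a diet have no order. On the left the 6 genes Tyrp1, Dct, Pmel, Tyr, Mlana and Oca2 are high in collagen 2 and 3 and spread apart in collagen 1. On the right Gpnmb splits by diet and Mitf has its ends in collagen 1 and 2. Slc45a2 is high in collagen 2 (1.80 SD), like the 6 genes. It is lowest in control 3 (-1.55 SD), like Tyrp1, Dct, Pmel and Oca2.

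Over both diets together, Gpnmb and Mitf had weak or negative correlations with most of these genes. With the diet means removed, Gpnmb had r of -0.128 with Tyrp1, -0.336 with Dct, 0.0329 with Pmel, 0.0888 with Oca2, 0.369 with Tyr and 0.474 with Mlana. Most of these values joined opposite signs within the diets. Within the collagen arrays r was 0.695 with Pmel, 0.743 with Oca2, 0.775 with Tyr and 0.845 with Mlana. Within the control arrays it was -0.757, -0.716, -0.501 and -0.936. For Tyrp1 the values were 0.28 and -0.591, and for Dct -0.00607 and -0.677, each on 4 arrays. Mitf, whose product drives the melanin genes, had a negative r with each of the other members once the diet means were removed, from -0.329 with Dct to -0.875 with Slc45a2. These signs depended on single arrays in part: with the diet means kept and collagen 2 left out, r was 0.199 with Tyrp1, 0.289 with Dct and 0.0148 with Pmel. Without collagen 3, Mitf and Tyr passed with r = -0.864 (adjusted exact permutation p = 0.0357). Over all 8 arrays with the diet means kept, its 6 pairs with Tyrp1, Tyr, Dct, Pmel, Mlana and Oca2 had r of -0.109 to -0.700, and none passed (adjusted exact permutation p of 0.106 to 0.833). Collagen 1 and collagen 2 were the ends of the Mitf range, and without them r was 0.174 with Mlana and -0.297 with Oca2.

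**Figure D4:**
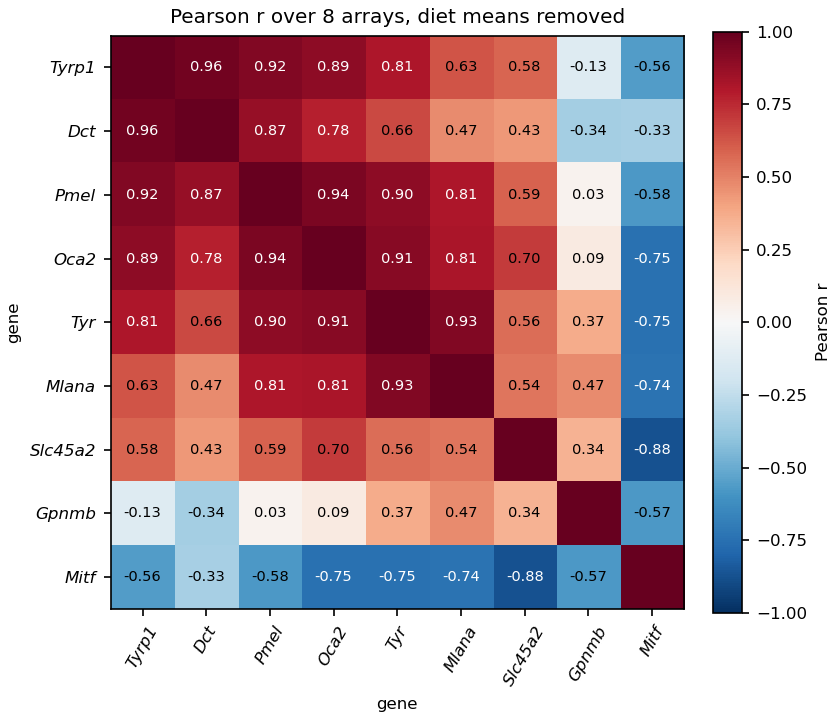
Cells give Pearson's r between the main probe sets of 2 genes over the 8 arrays after the mean of each diet was removed, from blue (-1) to red (1). Tyrp1, Dct, Pmel, Oca2, Tyr and Mlana form a red block, Gpnmb lies near 0 with Tyrp1 and Pmel, and the Mitf row is blue.

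The members differed in how closely they followed Tyrp1, set against all 18192 other genes. With the diet means removed, 0 genes had a higher r with Tyrp1 than Dct, 7 had a higher r than Pmel, 15 than Oca2, 72 than Tyr, 481 than Mlana and 716 than Slc45a2. By contrast, 10247 genes had a higher r than Gpnmb and 16499 a higher r than Mitf. Lineage, melanosome and transport genes of the pigment cell outside the members varied widely, from -0.674 for Slc7a11 to 0.648 for Gpr143. Between these lay 0.578 for Mc1r, 0.478 for Trpm1, 0.0160 for Pax3 and -0.0696 for Kit. Genes of other lists reached 0.933 for Fgf2 and, among the hair keratins, 0.703 for Krt35. With the diet means kept these were -0.0389 and 0.512, and Fgf2 was dim (mean level 7.16). Among genes at or above the median level, the 5 most like Tyrp1 were Dct (0.962), Ptgds, a prostaglandin D synthase (0.942), Slc39a6, a zinc transporter (0.930), Tom1, an endosomal trafficking protein (0.923), and Pmel (0.922). They kept r of at least 0.877 with each array left out. With the diet means kept, r with Tyrp1 was 0.981 for Dct, 0.805 for Ptgds, 0.913 for Slc39a6 and 0.950 for Pmel, but 0.258 for Tom1. The 5 most like Gpnmb were Vamp5, a vesicle membrane protein (0.994), Fh1, the fumarate hydratase of the citric acid cycle (0.980), Gstp3, a glutathione transferase (0.980), Nudt2 (0.971) and Cox4i1, a subunit of cytochrome c oxidase (0.969). No member was among these 5. Without collagen 1, the array with the lowest Gpnmb, these r were 0.917 to 0.992. The likeness leaves diet out: these 5 genes differed between the diets by -1.14 to 0.336 within-diet SD, against -6.24 for Gpnmb. These are the highest of 11596 genes compared over 8 arrays and are descriptions.

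**Figure D5:**
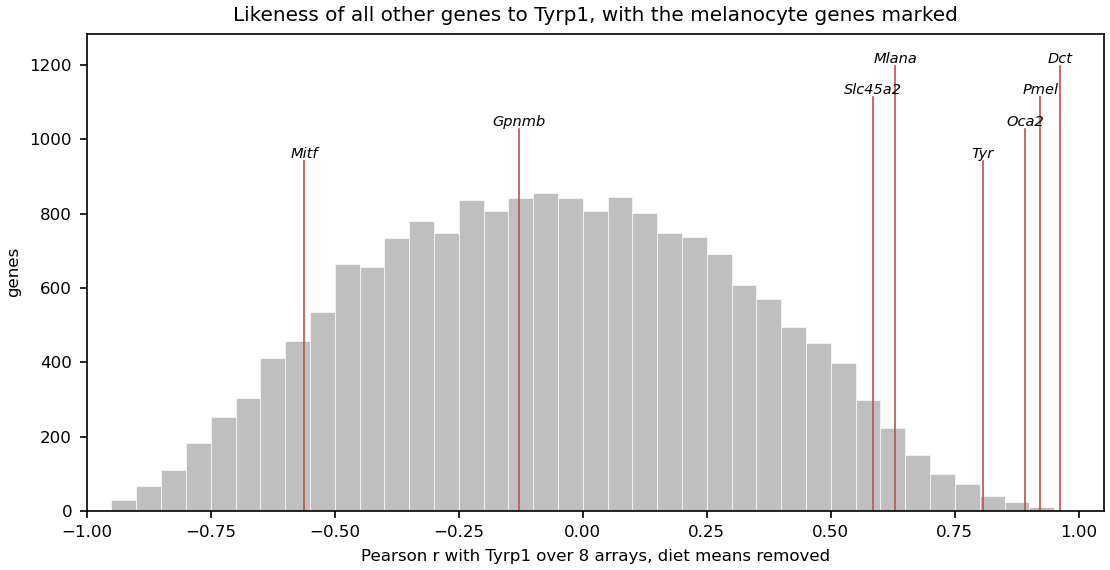
Bars count the other 18192 genes by their Pearson r with Tyrp1 over the 8 arrays, diet means removed, and red lines mark the other 8 members. Dct, Pmel, Oca2 and Tyr stand at the right end (0.962, 0.922, 0.891 and 0.806), Gpnmb at -0.128 near the centre and Mitf at -0.562 on the left.

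Other genes of the pigment cell showed no common difference between the diets, and none of them passed the adjusted threshold over all probe sets (limma, adjusted p of 1 for each gene named here). Of 12 lineage regulators and receptors, 5 lay higher and 7 lower with collagen (median standardised difference -0.075). Beside the counts of this paragraph stands the 52.9% of all genes that lay higher. Pax3, a transcription factor of the neural crest, was the 1 with an unadjusted p under 0.05 (1.55e-06 ± 5.74e-07, SE), where 2.35% of all genes had one in that direction and 3.62% in either. Mc1r, the receptor for melanocyte-stimulating hormone, differed by 3.64e-06 ± 1.94e-06, Ednrb, an endothelin receptor, by -6.13e-05 ± 6.80e-05 and Sox9 by -2.46e-06 ± 2.75e-06. Of 19 measured genes of melanosome biogenesis and channels, 13 lay higher and 6 lower (median 0.195), with Trpm1, a channel of melanocytes, at 9.43e-06 ± 4.16e-06, Hps1 at 1.17e-06 ± 8.10e-07, Ap3d1, an adaptor subunit, at -9.92e-06 ± 5.35e-06 and Bloc1s6 at -1.84e-06 ± 1.04e-06. Of 6 melanosome transport genes 4 lay higher (median 0.144), among them Rab27a (6.48e-06 ± 4.78e-06) and Mlph (3.64e-06 ± 4.05e-06), while Myo5a, the myosin that carries melanosomes, differed by -2.86e-06 ± 7.90e-06 and Sytl2 by -3.49e-05 ± 4.90e-05. Of 12 measured genes of signals that act on melanocytes 6 lay higher and 6 lower (median 0.182). Atrn and Hgf differed by 1.61e-06 ± 8.39e-07 and 5.42e-07 ± 3.26e-07, and Fgf2 and Corin by -9.37e-07 ± 4.15e-07 and -6.36e-06 ± 5.26e-06.

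Markers of other cells that use Gpnmb or Mitf were set beside them. Of 19 measured macrophage markers 14 lay lower with collagen, where 47.1% of all genes did (median -0.542), with Cd68 at -0.000726 ± 0.000514, Ctss at -2.07e-05 ± 1.58e-05, Lyz2 at 9.56e-06 ± 1.10e-05 and Cd14 at 0.000150 ± 0.000374. None had an unadjusted p under 0.05. Their summed score, the mean over genes of SD from each gene's mean, ran from -1.16 to 1.22 in the collagen group and from -0.383 to 0.691 in the control group. It was lowest in collagen 2 and collagen 1 and highest in collagen 4, and with the diet means removed its r with Gpnmb was 0.210. Of 17 measured lysosome genes 14 lay lower (median -0.276). Tfe3, a transcription factor related to Mitf, at -1.98e-06 ± 6.61e-07, and Atp6v0d2, a proton pump subunit of osteoclasts and macrophages, at -0.000221 ± 8.46e-05, had unadjusted p under 0.05, as 1.27% of all genes did in that direction. Npc1 and Atp6v1h differed by 2.00e-06 ± 8.40e-06 and 4.74e-05 ± 2.69e-05. The lysosome score ran from -0.696 to 0.462 in the collagen group and from -0.126 to 0.727 in the control group. Scores of both lists overlapped between the diets, and their part in the Gpnmb difference was not tested.

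Of 12 mast cell markers 10 lay higher (median 0.269), where 52.9% of all genes did, and none had an unadjusted p under 0.05 by limma. Tpsab1 differed by 0.00812 ± 0.00744, Hdc by 0.00289 ± 0.00303, Mcpt4 by -0.000213 ± 0.00235 and Kit by -2.89e-05 ± 0.000722. The mast cell score ran from -0.718 to 1.66 with collagen and from -1.05 to 1.03 in the control group. Of 7 measured Schwann cell markers 2 lay higher, Cdh19 (0.000217 ± 0.000148) and S100b (1.61e-06 ± 1.59e-06), and 5 lower (median -0.198), with Pmp22 at -4.03e-05 ± 4.03e-05 and Ncam1 at -4.82e-06 ± 5.68e-06. Their score ran from -1.26 to 1.11 with collagen and from -0.242 to 0.251 in the control group. Hair shaft keratins mark growing follicles in haired mice, and the state of the follicles is not given here. Of 10 measured, with mean levels of 7.73 to 8.95, 8 lay lower (median -0.513), where 47.1% of all genes did. Krt86 differed by -0.0215 ± 0.0217, Krt33a by -0.0219 ± 0.0226, Krt35 by 0.000151 ± 0.00218 and Krt82 by 2.66e-05 ± 0.000126. The keratin score ran from -1.53 to 1.54 with collagen and from -0.635 to 0.688 in the control group. Of the 9 skin markers 4 lay higher and 5 lower (median -0.0363), with Krt5 at 4.97e-06 ± 5.28e-06, Krt14 at 2.35e-07 ± 2.09e-07, Col1a1 at -0.00288 ± 0.00171 and Col1a2 at -9.83e-06 ± 8.09e-06.

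Tyrp1 and Mitf were each correlated over the 8 arrays with the scores of these 10 lists and with the difference between the 3' and 5' Gapdh control probe sets, a measure of RNA integrity, in 22 relations. None passed after adjustment over the 22. For Tyrp1 and the hair shaft keratins r was 0.219 (adjusted exact permutation p = 0.787) and rho was 0 (adjusted exact permutation p = 1), and r was 0.550 with the diet means removed. For Tyrp1 and the lysosome genes r was -0.828 (adjusted exact permutation p = 0.142) and rho was -0.857 (adjusted exact permutation p = 0.236), and without collagen 2 and control 3 r was -0.545. For Mitf and the Schwann cell markers r was 0.889 (adjusted exact permutation p = 0.142) and rho was 0.619 (adjusted exact permutation p = 0.632), and without collagen 1 and collagen 2 r was 0.116. The Gapdh difference was 0.29002 to 0.29058 in the collagen arrays and 0.28978 to 0.29041 in the control arrays. Its r was 0.161 with Tyrp1 and 0.679 with Mitf (adjusted exact permutation p of 0.824 and 0.481). The rho was 0.262 and 0.810 (adjusted exact permutation p of 0.969 and 0.240). For Gpnmb, with the diet means removed and as a description, r was -0.787 with the Gapdh difference, -0.794 with the lineage regulators and receptors, -0.714 with the Schwann cell markers and between -0.227 and 0.462 with the other 8 lists. The Gapdh difference overlapped between the diets through control 1 alone (0.29041). The other control arrays, at 0.28978 to 0.28985, lay below every collagen array. The part of the Gapdh difference in the patterns and in the differences between the diets was not tested.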

How the data were processed

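Total RNA of powdered frozen dorsal skin was labelled with biotin and hybridised to 1-colour arrays, per the labels' protocols. The authors deposited log2 values per probe set in a single table, and R 2.7.2 is named in the submitters' processing notes. The sources used here name neither the summary and normalization methods nor a genome build. Values were used as deposited. The 64 array control probe sets were left out. Of the 45037 others, 34945 had 1 gene symbol in the platform annotation, 932 several and 9160 none.

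The whole table was fitted by lmFit and eBayes of limma 3.58.1, run in R 4.3.3 (collagen minus control, no covariate, Benjamini-Hochberg over all probe sets), and SEs are limma's moderated SEs. The fit was run on simulated data with independent normal noise. The simulated shifts were larger than the standardised differences of all members but Gpnmb, so the power for those differences was not tested. Correlations used exact permutation over pairings of arrays, with Benjamini-Hochberg adjustment within each family, in Python 3.11.15 with numpy 2.4.6 and pandas 2.3.3. Figures used matplotlib 3.10.9.

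The members and gene lists were chosen with earlier results of these data known. The text names all 9 members, the 2 genes of smallest p per direction in each other list, and the 5 genes most like Gpnmb and Tyrp1 with the diet means removed. Gpr143 and Slc7a11 are named as the ends of a range of r with Tyrp1. Alternatives were each array left out, quantile normalization, median centring, the replicate number as a block, a filter on dim probe sets, another variance prior, 1 probe set per gene and the next brightest probe set of a gene.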

Additional observations from a re-analysis of the deposited data

Results flagged for a closer look

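In each diet's 4 arrays the gap between the most distant array and its neighbour was divided by the whole range, over the 16 probe sets of the members. Such a gap arises by chance in about 1 in 20 groups. The ratio was above the critical value in 3 cases. In the main Gpnmb probe set collagen 1 lay far below the other collagen arrays, at 11.6765427 (ratio 0.939), and without it the difference between the diets was -0.000407. In the dimmer Mitf probe set collagen 1 lay far above the others (ratio 0.842). In the dimmer Slc45a2 probe set collagen 3 lay far below the others (ratio 0.845).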

How the results depend on the processing

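Of 96 recomputed values, 88 stayed within the spread between arrays, or within 1.5 times a count. Part of this was fixed in advance. Leaving out 1 array cannot shift the Gpnmb or Tyrp1 difference by a whole within-diet SD, and the replicate block leaves both unchanged. The count is thus no measure of how firm the results are. After quantile normalization 2 probe sets passed the adjusted threshold, the Gpnmb difference was -0.000129, and 4 pairs of members passed in place of 7. The cause was not tested. By the next brightest probe set the Gpnmb difference was -2.31e-06. With the diet means removed 11 pairs of members passed. Removing the means ties the values of a diet to each other, so this permutation p is not exact and the count is a description. With 1 array left out, 1 (without collagen 2) to 14 (without collagen 1) pairs of members and 3 to 4 probe set pairs passed, 0 probe sets passed limma's threshold, and 7 to 8 members lay higher. The Gpnmb difference then ran from -0.000466 to -0.000407, that of Tyrp1 from 0.00272 to 0.00447, and the median standardised difference from 0.332 to 1.34 with Gpnmb and from 0.711 to 1.52 without it. With 7 arrays fewer permutations are possible. The covariation settings were chosen after seeing the data. With the replicate number as a block 0 probe sets passed and the median standardised difference was 0.852 over the members and 1.08 without Gpnmb. Same-numbered arrays had correlations of 0.361, 0.0581, 0.200 and 0.0343 in their deviations, all positive. Arrays of unlike number had -0.267 to 0.155, so the highest values were those of same-numbered arrays. Collagen 2, however, correlated better with control 3 (0.126) than with control 2. The labels call the numbers biological replicates and name no pairing, so the main fit took none. Whether the number marks a pairing was not tested. The block moved the probe sets at an unadjusted p under 0.05 to 2801, against 1601 without it. That count was 2967 without control 1, 3416 without collagen 4 and 176 after median centring. Signal over background is unknown for all members.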
